A study of Rattus norvegicus with 9 samples.

Results

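The box H/ACA small nucleolar RNAs and small Cajal body RNAs of the rat cerebral cortex were examined in rats aged 6, 12 or 28 months. The members were all Ensembl gene identifiers in the count files that the study's lists of non-coding RNAs pair with a name beginning SNORA or SCARNA, which gave 36 identifiers, carrying 26 names, of the 29516 identifiers counted. Those lists hold RNAs that the study called different between ages in these same libraries, so a difference between ages was a condition of entry, and the changes with age below are a description that cannot be tested on these libraries. The cortex came from male BN rats (substrain BN/SsNOlaHSD) fed ad libitum, and each library was made from the pooled total RNA of 2 rats after removal of ribosomal RNA and sequenced on the SOLiD platform, so that the spread between libraries is a spread between pools and not between single animals. Of the 9 deposited count files, 1 labelled 6 months (sample 2) holds the same value in every row as 1 labelled 12 months (sample 3), and they are therefore 1 library. Sample numbers only name the libraries of an age, and the labels number the pools 1 to 9 through the series. The labels do not settle its age, and it was left out of every comparison and is described apart as the shared library (in the plots, deposited under 6 and 12 months). That left 7 libraries with 1 age each, namely 2 at 6 months (samples 1 and 3), 2 at 12 months (samples 1 and 2) and 3 at 28 months (samples 1, 2 and 3).

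Box H/ACA RNAs fold into hairpins that are joined by a hinge carrying the H box and followed by an ACA trinucleotide near the 3′ end. With the proteins dyskerin, NOP10, NHP2 and GAR1 they form particles that convert uridine to pseudouridine at sites set by base pairing, in ribosomal RNA for the nucleolar members (SNORA) and in spliceosomal small nuclear RNA for the members that gather in Cajal bodies (SCARNA). In mammals most are cut out of the introns of other genes, often genes of ribosomal proteins and translation factors, rather than transcribed on their own. Dkc1, Nop10, Nhp2, Gar1 and the other protein genes of the pathway, and all but a few markers of the cortical cell types, could not be paired with an identifier and were not analysed here. In whole cortex, fewer cells of a type and less RNA per cell cannot be told apart.

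RefSeq (rat assembly GRCr8) held an entry of the same symbol for 15 of the 26 names, and 11 of these names were carried by 1 identifier. The entry lay within a protein-coding gene in 11 of the 15, such as Scarna11 within Chd4, Snora30 within Srcap, Snora31 within Tpt1, Snora53 within Slc25a3 and Snora64 within Rps2. Of the 15 entries, 2 were listed as microRNA hairpins that carry a member's symbol, Scarna3 (chr6:104955347-104955436, GRCr8, minus strand, within Dcaf5) and Snora19 (chr7:60665891-60665959, GRCr8, plus strand, within Usp15). Their sequences are given because a count per gene cannot separate hairpin reads from those of the RNA of that name where an identifier covers both. In the hairpins the capitals mark the mature microRNA arms.
Scarna3: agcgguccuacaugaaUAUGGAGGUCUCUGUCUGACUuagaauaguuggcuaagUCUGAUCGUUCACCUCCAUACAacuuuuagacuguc
Snora19: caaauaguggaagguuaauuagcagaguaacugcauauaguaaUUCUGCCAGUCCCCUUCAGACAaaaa
In the mature microRNAs the capitals mark the seed, bases 2 to 8, and the 3 seeds differed.
rno-miR-1843a-5p: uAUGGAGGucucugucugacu
rno-miR-1843a-3p: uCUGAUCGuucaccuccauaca
rno-miR-3084d: uUCUGCCAguccccuucagaca
The match rests on the symbol alone, and the SCARNA3 identifier and the 3 identifiers named SNORA19 were not tied to these positions, since the files follow the older build rn4.

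Reads counted on genes ranged from 6513376 to 9196951 per library, and between 44.0 and 52.4% of them fell on 1 identifier, ENSRNOG00000043866. The 36 members together received 14150 to 86271 reads per library. At 6 months they took 0.938% of the gene reads in sample 1 (95% exact binomial interval 0.932 to 0.944) and 0.760% in sample 3 (0.754 to 0.765). At 12 months the share was 0.210% in sample 1 (0.207 to 0.214) and 0.194% in sample 2 (0.190 to 0.197). At 28 months the shares were 0.424% in sample 1 (0.420 to 0.428), 0.358% in sample 2 (0.353 to 0.362) and 0.304% in sample 3 (0.300 to 0.308). The shared library stood at 0.323% (0.319 to 0.328), between the 6-month and the 12-month libraries and within the range of the 28-month libraries. Among the 7 libraries with 1 age each, the order was thus 6 months above 28 months above 12 months with no overlap. At either of its labelled ages, the shared library would make that age overlap the 28-month range. The intervals cover counting error only. Since the members were chosen for their change with age, this order is a description of the RNAs that were chosen.

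**Figure D1:**
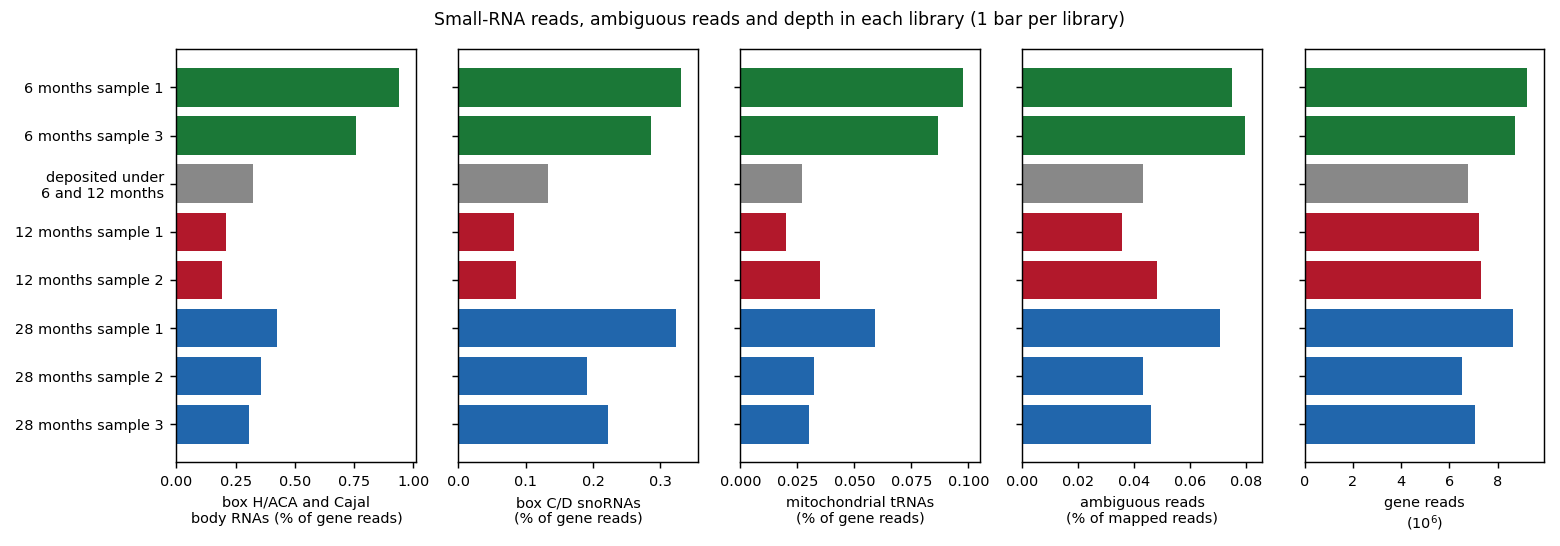
Horizontal bars, 1 per library, show from left to right the share of gene reads (%) on the 36 box H/ACA and Cajal body RNAs, on 13 box C/D snoRNAs and on 6 mitochondrial tRNAs, the share of mapped reads counted as ambiguous (%), and the number of gene reads, with green for 6, red for 12 and blue for 28 months and grey for the shared library. The 6-month libraries had the longest bars and the 12-month libraries the shortest in the first panel, at 0.760 to 0.938% and 0.194 to 0.210%.

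Other measures differed between the libraries as well. The 13 box C/D snoRNAs named in the same lists, which guide ribose methylation and not pseudouridine formation, took 0.330 and 0.286% of the gene reads at 6 months, 0.0819 and 0.0852% at 12 months and 0.324, 0.190 and 0.222% at 28 months. The 6 listed mitochondrial tRNAs took 0.0975 and 0.0869% at 6 months, 0.0202 and 0.0351% at 12 months and 0.0591, 0.0321 and 0.0301% at 28 months. The 3 libraries with the largest member shares, both of 6 months and 28 months sample 1, also had the most gene reads, 8648997 to 9196951 against 6513376 to 7310231 in the other 5 libraries. The same 3 libraries had the highest shares of ambiguous reads, 0.0707 to 0.0794% of the mapped reads against 0.0356 to 0.0481%. The part of these measures in the differences between ages was not tested. Both 6-month libraries were deeper than both 12-month libraries, so that for this pair depth and age cannot be told apart. Among the 3 deepest libraries alone, an alternative added after the data had been seen, the median log2FC of the 36 members from 6 to 28 months was -0.93, and 34 of 36 were below 0. That fit holds only 1 library at 28 months, sample 1, and so no spread at that age. Among the less deep libraries, with 28 months sample 1 left out, the median from 12 to 28 months was 0.85, and 34 of 36 were above 0. The members were chosen for their change with age in these same libraries, so nothing is read from these signs. The part of depth was not tested.

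Normalized counts below are CPM, the reads of a gene scaled to a common library size, after TMM over the 8 libraries. They are not divided by length and serve to compare libraries for 1 RNA, not RNAs with each other. Every one of the 36 members had its highest normalized count in a 6-month library, 33 in sample 1 and 3 in sample 3 (SNORA53, SNORA84 and SNORA70 with the identifier ending 34666), whereas 14.1% and 12.2% of the 16374 genes with at least 5 reads in some library were highest in these libraries. The lowest value lay in a 12-month library for 28 members, in 28 months sample 3 for 4 (SNORA3 ending 34748, SNORA36 ending 36005, SNORA29 ending 35910 and SNORA9), in 28 months sample 2 for 3 and in the shared library for SNORA14. The median over the 36 members was 117 and 56.4 at 6 months, 13.3 and 12.9 at 12 months and 38.8, 16.6 and 18.3 at 28 months. Names carried by 2 or more identifiers are written with the last digits of the identifier in parentheses. Where ages are said not to overlap or to be separate, the shared library is left out.

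**Figure D2:**
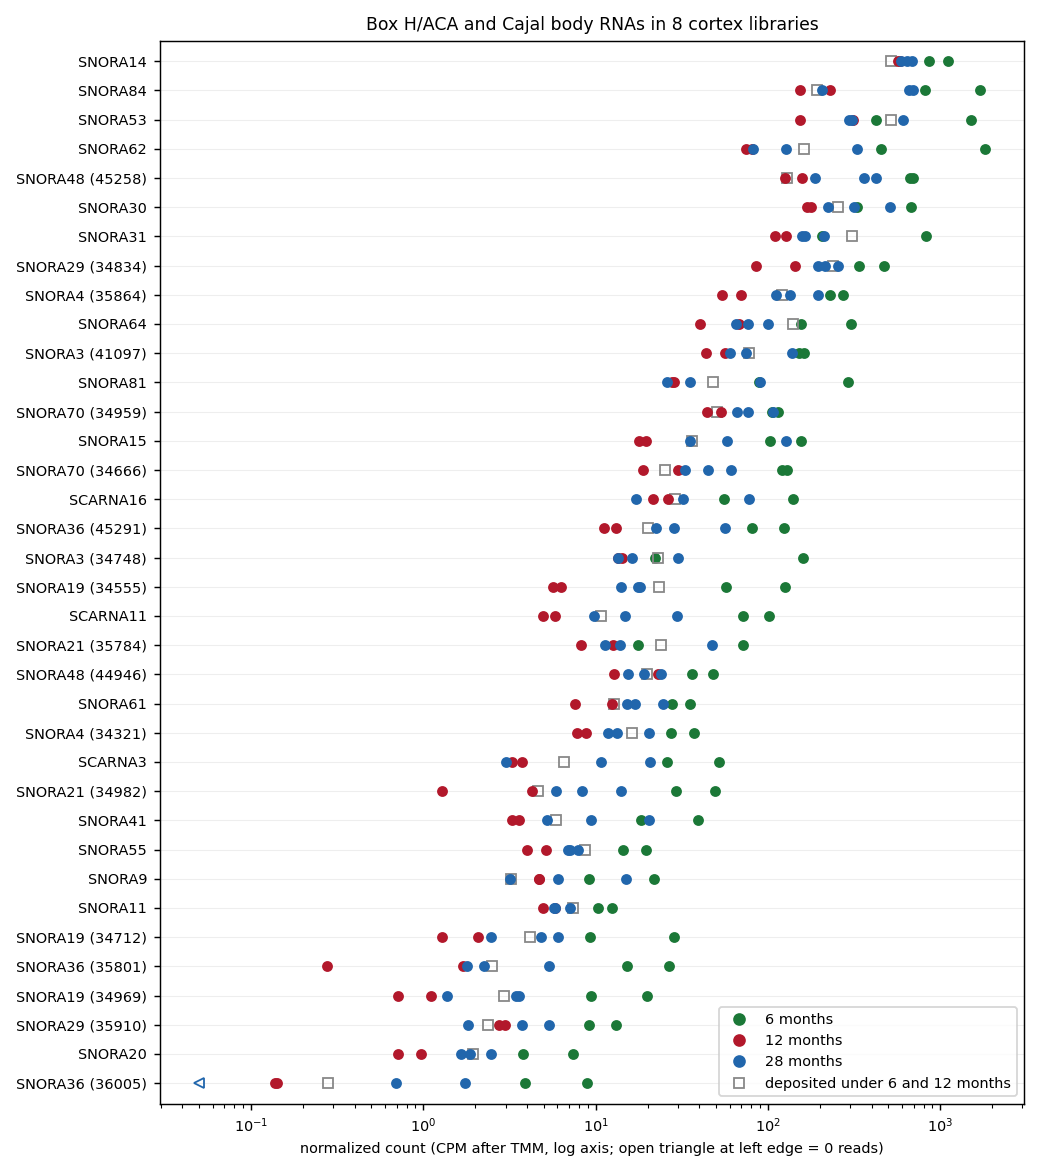
Each row is 1 of the 36 RNAs, ordered by its mean, and each point is its normalized count (CPM after TMM, log axis) in 1 library, green for 6, red for 12 and blue for 28 months, with an open square for the shared library and an open triangle for 0 reads. The green points lie to the right of the red points in all 36 rows.

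The comparison of 6 with 12 months addressed the change from young to mature cortex. All 36 members were lower at 12 months, with no overlap between the 2 libraries of each age. The median log2FC was -2.21, a 4.61-fold lower level, and for the 34 members with more than 3 reads in each library of known age the values ran from -4.01 for SCARNA11 to -0.78 for SNORA14. Over the 15966 genes tested the median was -0.01. At an adjusted p under 0.05 over all genes (edgeR's quasi-likelihood test, Benjamini-Hochberg), 28 of the 36 members were called, all of them lower at 12 months, where 0.883% of all genes were called lower. Libraries of the 2 ages did not overlap, with 12 months lower, in 36 of 36 members and 22.4% of all genes. The members were chosen in this contrast, and nothing is read from these counts. The 8 members not called were SNORA11, SNORA14, SNORA21 (35784), SNORA3 (34748), SNORA31, SNORA48 (44946), SNORA53 and SNORA9. With the shared library kept in both groups, as labelled, all 36 members were still below 0 with a median of -1.73, but edgeR called 0 of them and 0 of the 16113 genes tested, while 35 members had an unadjusted p under 0.05. With that library at 12 months only, 23 members were called, beside 0.534% of all genes, and the median was -2.13. With it at 6 months only, edgeR called 0 members, beside 0.118% of all genes, with 34 at an unadjusted p under 0.05 and a median of -1.90. Without the shared library, 36 members and 2169 of the 15966 genes tested were under that unadjusted threshold. With it kept, the number of all genes at that threshold is not given, and nothing is read from the unadjusted counts.

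From 6 to 28 months, the span to the old cortex, all 36 members were again lower at the older age, by less. The median log2FC was -1.29, a 2.44-fold lower level, and the 34 members with more than 3 reads in each library ran from -2.66 for SNORA62 to -0.41 for SNORA70 (34959), with a median of -0.01 over 16042 genes. The same test called 6 members lower, where it called 0.199% of all genes lower. These were SCARNA11, SNORA19 (34555), SNORA19 (34969), SNORA21 (34982), SNORA36 (35801) and SNORA70 (34666), and all 6 were among the 28 called from 6 to 12 months; both comparisons use the same 6-month libraries. In 25 members the libraries did not overlap, against 11% of all genes with 28 months lower. The number called depended on single libraries. Without 6 months sample 1 it was 1 (0.121% of all genes), and without 6 months sample 3 it was 11 (0.241%). Without 28 months sample 1 it was 20 (0.749%), without sample 2 it was 6 (0.208%), and without sample 3 edgeR called 0 of the members and 0% of all genes lower, with 27 members at an unadjusted p under 0.05. With the shared library counted at 6 months, edgeR called 0 members, beside 0.105% of all genes, 20 had an unadjusted p under 0.05 and the median was -0.97. Without it, 31 members and 1035 of the 16042 genes tested were under that unadjusted threshold.

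From 12 to 28 months all 36 members were higher at the older age. The median log2FC was 0.99, a 1.99-fold higher level, and the 34 members ran from 0.13 for SNORA48 (44946) to 1.98 for SNORA15, with a median of 0.01 over 15840 genes. The test called SNORA19 (34555) alone, where it called 0.0758% of all genes higher. In 23 members every 28-month library lay above every 12-month library, against 11.4% of all genes. The count was 6 without 28 months sample 1 (0.409% of all genes) and 10 without sample 2 (0.786%). It was 0 without 28 months sample 3, and 0% of all genes were called higher in that edgeR fit, where 31 members had an unadjusted p under 0.05. The median was 1.11 without 12 months sample 1 and 0.97 without 12 months sample 2, each with 1 library left at that age. With the shared library counted at 12 months, edgeR called 0 members, beside 0.025% of all genes, and 13 had an unadjusted p under 0.05. The median was then 0.76, with 34 of 36 above 0. Without that library, 28 members and 1216 of the 15840 genes tested were under that unadjusted threshold. The 3 comparisons share libraries in pairs, so their values for 1 RNA are not independent of each other.

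**Figure D3:**
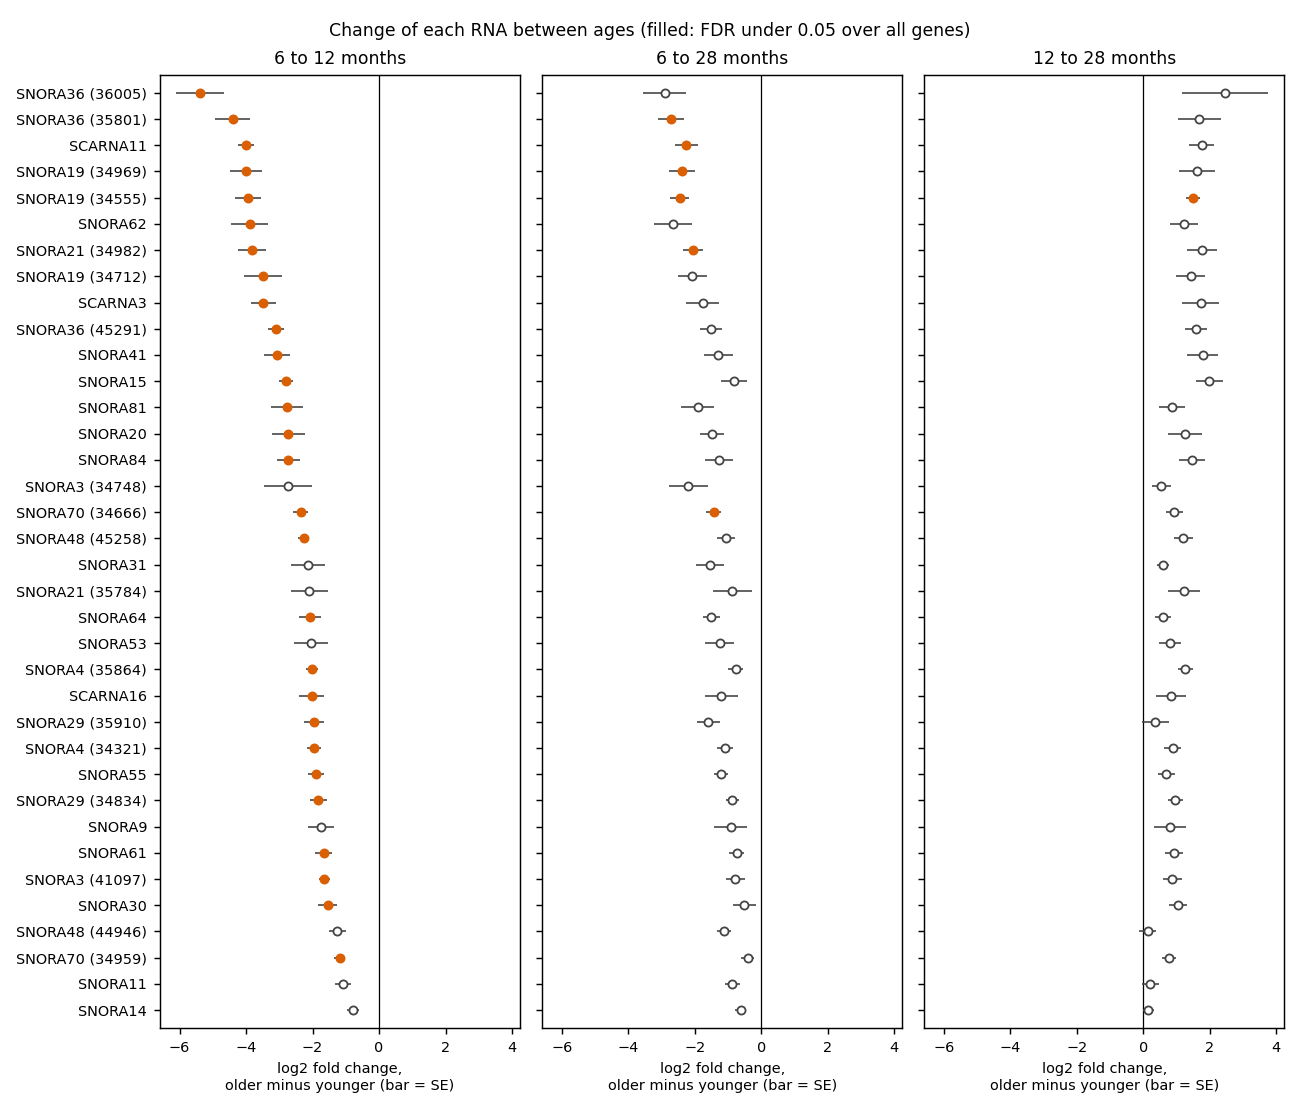
Points give the log2 fold change (older minus younger) of each of the 36 RNAs and bars its standard error from the edgeR quasi-likelihood fit, in 1 panel for each pair of ages, with filled points for an adjusted p under 0.05 over all genes. All points lie left of 0 in the first and second panels and right of 0 in the last, and 28, 6 and 1 are filled.

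Among the 3 Cajal body RNAs, which guide pseudouridine formation in spliceosomal RNA, SCARNA11 had normalized counts of 101 and 71.7 at 6 months, 5.84 and 4.95 at 12 months and 29.5, 14.8 and 9.81 at 28 months, with 10.8 in the shared library. This was a log2FC of -4.01 (SE 0.24) from 6 to 12 months, -2.25 (SE 0.34) from 6 to 28 months and 1.75 (SE 0.39) from 12 to 28 months, and the 3 ages did not overlap. The normalized counts of SCARNA3 were 52.2 and 25.8 at 6 months, 3.28 and 3.71 at 12 months and 20.6, 3.04 and 10.7 at 28 months, with 6.56 in the shared library. From 6 to 12 months its log2FC was -3.48 (SE 0.37), and 28 months sample 2 lay below both 12-month libraries. For SCARNA16 the values were 139.6 and 55.5 at 6 months, 21.6 and 26.4 at 12 months and 77.9, 17.1 and 32.1 at 28 months, with 28.8 in the shared library. Its 28-month libraries spread from below the 12-month values to above 6 months sample 3, so that only the 6-month and 12-month libraries stood apart, with a log2FC of -2.03 (SE 0.37). All 3 were called lower at 12 than at 6 months, beside 0.883% of all genes. SCARNA11 alone of them was called between 6 and 28 months, beside 0.199% of all genes called lower.

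The next groups follow the gene in whose intron the human RNA of the same name lies, which is background; the rat identifiers were not tied to their own hosts here, and RefSeq places the rat entries Snora19, Snora20, Snora21, Snora29 and Snora84 in other genes than the human names would give, and Snora4 and Snora81 outside any protein-coding gene. Of the 8 identifiers named after RNAs of ribosomal protein genes, 6 were called lower at 12 than at 6 months and 2 lower at 28 than at 6 months. In these comparisons 28 and 6 of all 36 members were called, and 0.883 and 0.199% of all genes. All members were chosen by the study's calls, so nothing is read from the counts of any group. SNORA62, an intron RNA of the gene of the ribosomal protein SA, had normalized counts of 1821 and 450.3 at 6 months, 74.3 and 80.8 at 12 months and 330.1, 127 and 81.6 at 28 months, with 162 in the shared library. The log2FC was -3.89 (SE 0.55) from 6 to 12 months and -2.66 (SE 0.57) from 6 to 28 months. The 6-month samples differed 4.04-fold from each other, and 28 months sample 3 lay between sample 2 and the 12-month libraries. SNORA64, of the gene of ribosomal protein S2, stood at 302 and 156 at 6 months, 68.4 and 40.6 at 12 months and 76.3, 101 and 65.0 at 28 months, and at 140.4 in the shared library. Both 6-month libraries lay above all others of known age, and the 12-month and 28-month libraries overlapped. Its log2FC was -2.08 (SE 0.33) to 12 months and -1.50 (SE 0.26) to 28 months, both from 6 months.

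SNORA21, SNORA3 and SNORA70, whose human namesakes lie in the genes of the ribosomal proteins L23, L27a and L10, each had 2 identifiers. The normalized counts of SNORA21 (34982) were 49.2 and 29.4 at 6 months, 1.28 and 4.27 at 12 months and 14.1, 8.28 and 5.88 at 28 months, with 4.61 in the shared library. The 9 reads in 12 months sample 1 were the fewest of the 8 libraries, and the 3 ages did not overlap. Its log2FC was -3.82 (SE 0.42) from 6 to 12 months and -2.05 (SE 0.31) from 6 to 28 months. For SNORA21 (35784) the values were 71.4 and 17.6 at 6 months, 8.26 and 12.7 at 12 months and 47.3, 11.3 and 13.9 at 28 months, with 24.0 in the shared library. Here 28 months sample 1 lay above 6 months sample 3, and the log2FC from 6 to 12 months was -2.10 (SE 0.55). SNORA3 (34748) had normalized counts of 160.5 and 22.1 at 6 months, 14.2 and 13.5 at 12 months and 30.2, 16.1 and 13.4 at 28 months, with 22.9 in the shared library. The single value of 6 months sample 1 stood apart, 7.25-fold above sample 3, which lay below 28 months sample 1. SNORA3 (41097) reached 162 and 151 at 6 months, 56.5 and 43.8 at 12 months and 138, 59.9 and 75.0 at 28 months, and 77.3 in the shared library. Both identifiers of the name were higher at 6 than at 12 months in every library, with a log2FC of -2.73 (SE 0.72) for the first and -1.65 (SE 0.17) for the second. The normalized counts of SNORA70 (34666) were 120.3 and 129 at 6 months, 29.9 and 18.9 at 12 months and 61.2, 32.9 and 44.7 at 28 months, with 25.1 in the shared library. For SNORA70 (34959) the values were 114 and 106 at 6 months, 53.7 and 44.0 at 12 months and 106, 65.8 and 77.0 at 28 months, with 50.8 in the shared library. The first of these separated 6 months from 12 and 28 months, with a log2FC of -2.36 (SE 0.22) and -1.43 (SE 0.22), whereas for the second 28 months sample 1 reached the 6-month values.

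Of the 12 identifiers named after RNAs in genes of translation factors and related proteins, 10 were called lower at 12 than at 6 months, 2 lower at 28 than at 6 months and 1 higher at 28 than at 12 months. The shares of all genes called in these directions were 0.883, 0.199 and 0.0758%. SNORA19 (34555), named after an RNA of the gene of a subunit of initiation factor 3, was the only member called in every comparison. SNORA19 (34555) had normalized counts of 125 and 57.2 at 6 months, 6.27 and 5.64 at 12 months and 18.2, 14.1 and 17.5 at 28 months, with 23.2 in the shared library. The 3 ages did not overlap, with a log2FC of -3.94 (SE 0.38) from 6 to 12 months, -2.45 (SE 0.28) from 6 to 28 months and 1.49 (SE 0.22) from 12 to 28 months. The other identifiers of this name had few reads at 12 months, 9 and 15 for SNORA19 (34712) and 5 and 8 for SNORA19 (34969). SNORA19 (34712) reached 28.3 and 9.29 at 6 months, 1.28 and 2.06 at 12 months and 6.07, 2.48 and 4.83 at 28 months, and 4.19 in the shared library. The normalized counts of SNORA19 (34969) were 19.9 and 9.40 at 6 months, 0.712 and 1.10 at 12 months and 3.59, 1.38 and 3.47 at 28 months, with 2.93 in the shared library. For both, every 12-month library lay below every 28-month library and these below every 6-month library. The log2FC from 6 to 12 months was -3.49 (SE 0.57) for the first and -4.00 (SE 0.48) for the second.

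SNORA48 (45258), named after an RNA of the gene of initiation factor 4A1, had the most reads of its name. For SNORA48 (45258) the values were 691 and 668 at 6 months, 158 and 125 at 12 months and 363, 422 and 187 at 28 months, with 129 in the shared library. The 6-month samples differed by 1.03-fold only, and the log2FC was -2.27 (SE 0.17) from 6 to 12 months. SNORA48 (44946) had normalized counts of 48.1 and 36.2 at 6 months, 22.9 and 12.8 at 12 months and 23.9, 15.3 and 19.0 at 28 months, with 19.8 in the shared library. This identifier was not called in any comparison, and 12 months sample 1 lay within its 28-month range. SNORA84, whose human namesake lies in the gene of an aminoacyl-tRNA synthetase, stood at 814 and 1711 at 6 months, 153 and 229 at 12 months and 691, 207 and 657 at 28 months, and at 193 in the shared library. The ratio of 6 months sample 1 to sample 3 was 0.476, opposite in direction to most members, and 28 months sample 2 lay between the 12-month libraries. Its log2FC from 6 to 12 months was -2.73 (SE 0.34).

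SNORA4 (35864) and SNORA4 (34321), are named after an RNA of the gene of initiation factor 4A2. The normalized counts of SNORA4 (35864) were 273 and 229 at 6 months, 53.8 and 69.8 at 12 months and 196, 112 and 133 at 28 months, with 120.4 in the shared library. For SNORA4 (34321) the values were 37.1 and 27.5 at 6 months, 7.83 and 8.81 at 12 months and 20.4, 13.2 and 11.8 at 28 months, with 16.3 in the shared library. In both, the 3 ages did not overlap and 12 months was lowest, with a log2FC from 6 to 12 months of -2.03 (SE 0.18) and -1.96 (SE 0.21). SNORA31, an RNA of the gene of the translationally controlled tumour protein, had normalized counts of 828 and 205 at 6 months, 127 and 109.5 at 12 months and 212, 157 and 164 at 28 months, with 309 in the shared library. It was not called, and 6 months sample 3 lay below 28 months sample 1 and below the shared library. SNORA81, whose human namesake shares its host with SNORA4, stood at 293 and 88.2 at 6 months, 27.8 and 28.6 at 12 months and 90.4, 26.1 and 35.3 at 28 months, and at 47.9 in the shared library. Its log2FC from 6 to 12 months was -2.77 (SE 0.47), and 28 months sample 1 lay above 6 months sample 3. SNORA41, named after an RNA of the gene of elongation factor 1 beta, and SNORA55, after one of a cytoplasmic poly(A)-binding protein gene, had a log2FC of -3.07 (SE 0.39) and -1.90 (SE 0.25) from 6 to 12 months.

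All 4 identifiers named after RNAs of chaperonin subunit genes were called lower at 12 than at 6 months, beside 0.883% of all genes. The normalized counts of SNORA15 were 156 and 103 at 6 months, 19.7 and 17.9 at 12 months and 128, 35.3 and 58.2 at 28 months, with 36.1 in the shared library. Every 12-month library of SNORA15 lay below every 28-month library, with a log2FC of 1.98 (SE 0.41) from 12 to 28 months, and 28 months sample 1 lay between the 6-month samples. For SNORA29 (34834) the values were 470.5 and 337 at 6 months, 143 and 85.0 at 12 months and 214, 254 and 195 at 28 months, with 239.5 in the shared library. The 3 ages were separate, with a log2FC of -1.83 (SE 0.26) from 6 to 12 months and 0.96 (SE 0.22) from 12 to 28 months. SNORA29 (35910) had normalized counts of 13.1 and 9.18 at 6 months, 2.99 and 2.75 at 12 months and 5.33, 3.73 and 1.81 at 28 months, with 2.37 in the shared library. This identifier held 2.15% of the reads of its name, and its lowest value was at 28 months. SNORA20 had 5 and 7 reads at 12 months and 33 to 68 at 6 months, with a log2FC of -2.73 (SE 0.49) between these ages.

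The remaining 9 identifiers carried names whose hosts are of other kinds or not certain. Of these 9, 5 were called lower at 12 than at 6 months, beside 0.883% of all genes. SNORA14, with the most reads of all members, stood at 1110 and 863 at 6 months, 572 and 587 at 12 months and 688, 589 and 642 at 28 months, and at 517 in the shared library. Its difference from 6 to 12 months, -0.78 (SE 0.17) on the log2 scale, was the smallest of the 36, and it was not called in any comparison. SNORA53, an RNA of the gene of the mitochondrial phosphate carrier, had normalized counts of 426 and 1503 at 6 months, 312 and 153 at 12 months and 308, 608 and 296 at 28 months, with 519 in the shared library. One 6-month library stood far above the rest, and 6 months sample 1 lay below 28 months sample 2. SNORA36 is named after an RNA in the gene of dyskerin, the pseudouridine synthase of these particles, and had 3 identifiers. For SNORA36 (45291) the values were 124 and 80.6 at 6 months, 11.1 and 13.1 at 12 months and 56.4, 22.4 and 28.5 at 28 months, with 20.1 in the shared library. The 3 ages of SNORA36 (45291) did not overlap, and its log2FC was -3.09 (SE 0.24) from 6 to 12 months. SNORA36 (35801) had 245 and 132 reads at 6 months, 12 and 2 at 12 months and 43, 13 and 15 at 28 months, with 18 in the shared library. SNORA36 (36005) had 82 and 34 reads at 6 months, 1 and 1 at 12 months and 14, 5 and 0 at 28 months, with 2 in the shared library. No fold is given for these identifiers, since their 12-month libraries held as few as 1 to 2 reads. SNORA11 had normalized counts of 12.4 and 10.3 at 6 months, 5.84 and 4.95 at 12 months and 7.06, 5.80 and 5.73 at 28 months, with 7.40 in the shared library. SNORA11 was not called in any comparison. SNORA30, an RNA of the gene of a chromatin remodelling ATPase, stood at 673 and 327 at 6 months, 168 and 177 at 12 months and 514, 223 and 314 at 28 months, and at 254 in the shared library. Its log2FC was -1.54 (SE 0.29) from 6 to 12 months, and 28 months sample 1 exceeded 6 months sample 3. SNORA9 and SNORA61, whose human namesakes lie in host genes without a protein product, had a log2FC of -1.74 (SE 0.40) and -1.67 (SE 0.25) from 6 to 12 months.

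The 13 box C/D snoRNAs of the same lists were lower at 12 months as well, with a median log2FC of -1.16 from 6 to 12 months (range -3.74 to -0.29). Of the 13, 7 were called lower, beside 0.883% of all genes. Between 6 and 28 months their median was -0.32 (range -1.50 to 0.31), beside -1.29 for the H/ACA and Cajal body RNAs. In that comparison 0 of the 13 were called, and 0.199% of all genes were called lower. Between 12 and 28 months their median was 1.04, beside 0.99, and 3 of the 13 were called higher, as were 0.0758% of all genes. The 12-month libraries lay below all libraries of the other ages in 23 of the 36 H/ACA and Cajal body RNAs, in 11 of the 13 box C/D snoRNAs and in 7.03% of all genes. The 6-month libraries lay above all 28-month libraries in 25 of 36, in 3 of 13 and in 11% of all genes. Both lists were selected on these libraries, and the difference between them was not tested.

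The split of reads among identifiers of 1 name also differed between libraries. SNORA70 (34666) held 51.3% of the SNORA70 reads in 6 months sample 1 (95% exact binomial interval 49.2 to 53.4) and 54.9% in sample 3 (52.7 to 57.0). Its share was 35.8 and 30.0% at 12 months, 36.5, 33.3 and 36.7% at 28 months and 33.1% in the shared library. Both 6-month libraries thus stood above every other library, and the highest upper bound among the others was 40.2%. The intervals cover counting error only and not the spread between pools. Both identifiers were chosen by the study's calls on these libraries, so this split is a description. For SNORA3 (34748) 1 library stood apart, at 49.8% in 6 months sample 1 (48.0 to 51.6) against 12.8% in 6 months sample 3 and 15.2 to 23.6% in the other 6 libraries. SNORA21 (34982) held 40.8 and 62.6% of its name's reads at 6 months, 13.4 and 25.2% at 12 months and 23.0, 42.3 and 29.8% at 28 months, with 6 months sample 1 below 28 months sample 2. For SNORA36 the most read identifier, ending 45291, held 77.6 and 80.9% at 6 months and 85.7 to 96.9% in the other libraries. Here intervals overlapped, with 78.1 to 83.5% in 6 months sample 3 and 76.8 to 92.2% in 12 months sample 1. The 2 identifiers of SNORA29 and of SNORA4 kept close to 1 ratio, with 96.9 to 99.1% of reads on SNORA29 (34834) and 87.3 to 91.9% on SNORA4 (35864). How the counting divided reads that map to more than 1 copy is not given in the sources used here, so a level of 1 identifier is less certain than that of its name.

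**Figure D4:**
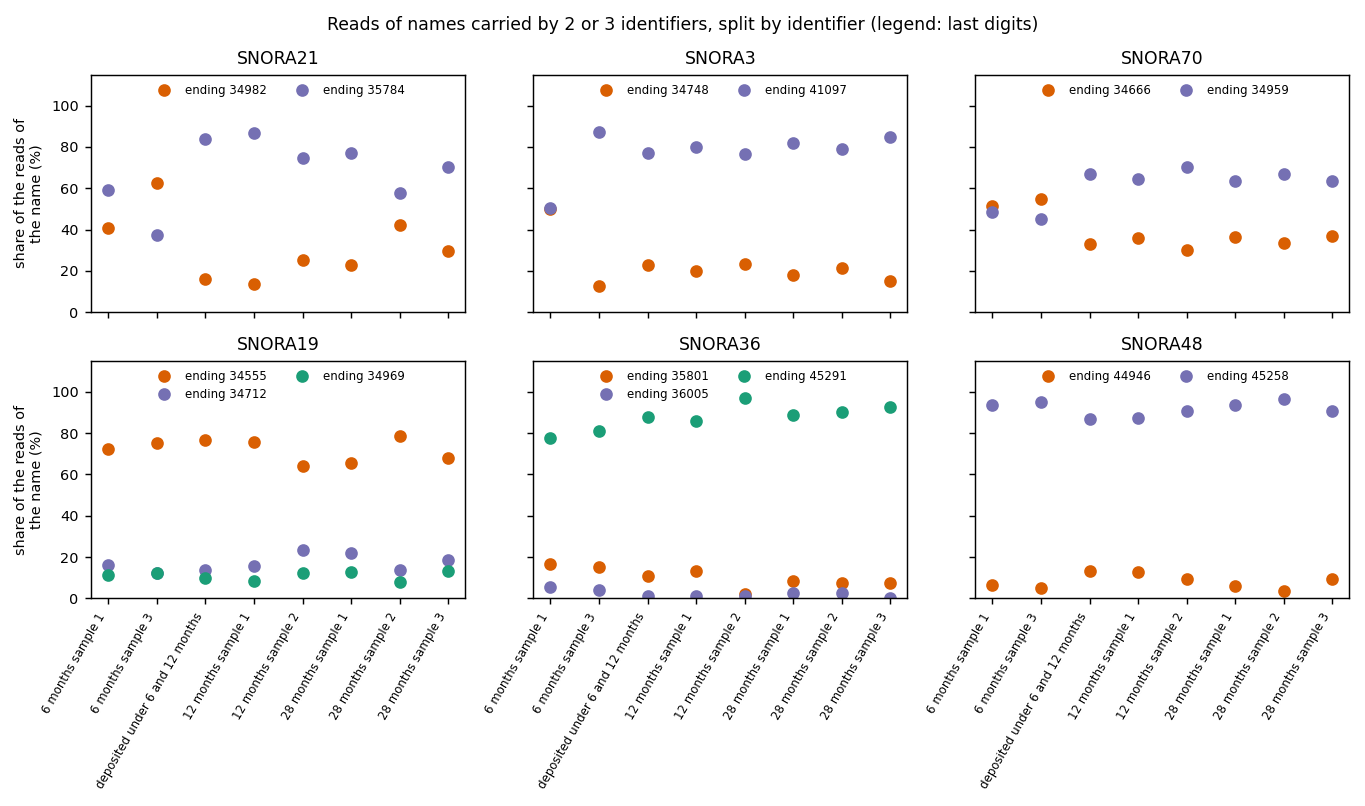
Each panel shows 1 name and each point the share (%) of the reads of that name on 1 identifier in 1 library, with colours for identifiers as given by their last digits. In the SNORA70 panel the identifier ending 34666 is at 51.3 and 54.9% in the 6-month libraries and at 30.0 to 36.7% in the others.

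Libraries of 1 age differed among themselves. The ratio of 6 months sample 1 to sample 3 ran from 0.283 for SNORA53 to 7.25 for SNORA3 (34748), and 33 of 36 members were higher in sample 1, as were 10 of the 13 box C/D snoRNAs and 49.7% of all genes. It was over 3 for SNORA21 (35784) at 4.07, SNORA31 at 4.05, SNORA62 at 4.04, SNORA81 at 3.32 and SNORA19 (34712) at 3.05. Leaving out 6 months sample 1 moved the fold from 6 to 12 months by more than 1.5 times for 15 members, and leaving out sample 3 for 8. Without sample 1 the log2FC was -2.53 for SNORA62, -1.64 for SNORA81, -1.20 for SCARNA16, -0.79 for SNORA31, -0.74 for SNORA21 (35784) and -0.67 for SNORA3 (34748), and all 36 members were still below 0. Without sample 3 it was -0.89 for SNORA53. From 6 to 28 months the fold moved as much for 15 members without 6 months sample 1, with a log2FC of -1.32 for SNORA62, -0.79 for SNORA81, -0.20 for SNORA31 and -0.14 for SNORA3 (34748), and for 8 without sample 3, with -0.65 for SNORA84 and -0.07 for SNORA53. At 28 months, sample 1 was above both others in 29 of 36 members, against 35.0% of all genes, and its ratio to their mean was 3.76 for SNORA21 (35784) and 0.682 for SNORA53. Leaving it out moved the fold by more than 1.5 times for 10 members, both from 6 and from 12 months. Of the 12-month libraries, leaving out sample 1 moved the fold by more than 1.5 times for 3 members and leaving out sample 2 for 2, from 6 as from 28 months. The log2FC of SNORA21 (34982) from 6 to 12 months was -3.22 without sample 1 and -4.92 without sample 2, and from 12 to 28 months it was 1.16 and 2.88. The others were SNORA36 (35801) in both and SNORA53, whose log2FC from 6 to 12 months was -2.68 without sample 1. Neither 12-month library stood above the other for the members as a whole, with a median of 13.3 and 12.9.

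**Figure D5:**
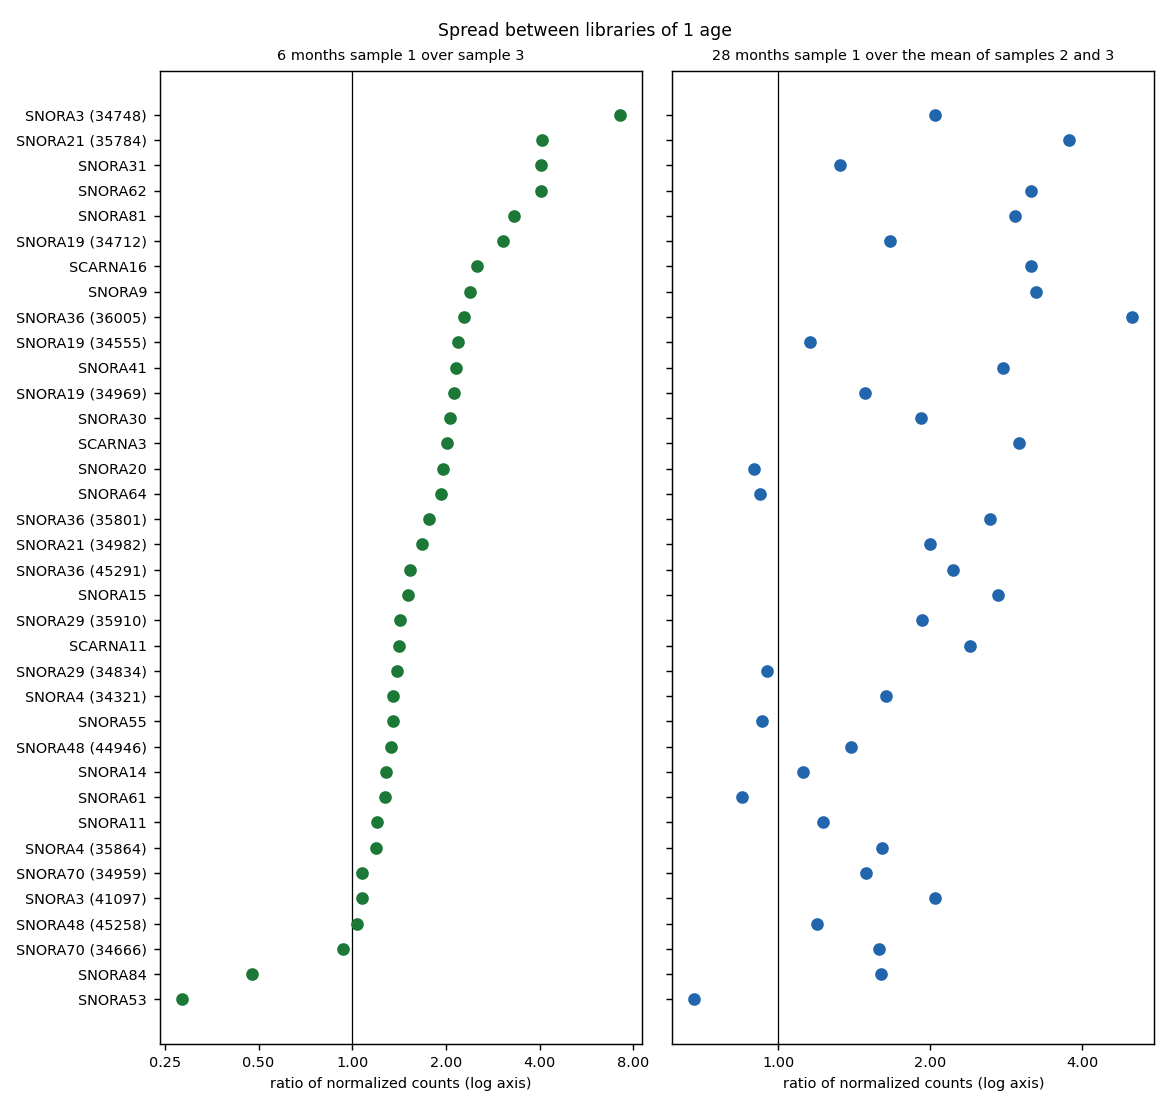
Points give, for each of the 36 RNAs, the ratio of normalized counts (log axis) of 6 months sample 1 to sample 3 on the left, and of 28 months sample 1 to the mean of samples 2 and 3 on the right, with a line at 1. On the left 33 points are above 1, up to 7.25 for SNORA3 (34748), and SNORA53 is lowest at 0.283.

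In the shared library, 32 of the 36 members lay below both 6-month libraries, the exceptions being SNORA21 (35784), SNORA3 (34748), SNORA31 and SNORA53, as did 37.3% of all genes. Above both 12-month libraries lay 28 members and 35.6% of all genes, and 24 lay between the 6-month and the 12-month libraries, as did 11 of the 13 box C/D snoRNAs and 4.49% of all genes. Within the range of the 28-month libraries lay 23 members and 48.5% of all genes. These values did not place the library at 1 age, and it was not reassigned.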

How the data were processed

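The authors pooled total cortex RNA from 2 rats per library, removed ribosomal RNA, fragmented it, selected the cDNA by size and sequenced it on the SOLiD system. They mapped reads with Bowtie to the rat genome (rn4 per the labels), sorted them with SAMtools and deposited raw read counts per Ensembl gene from HTSeq, without normalization, followed by 5 lines of uncounted reads. These were left out of library sizes, and of the mapped reads 47.5 to 60.0% lay on no annotated gene. Program versions, the strand setting and the handling of reads that map to several copies are not given in the sources used here. Size selection and the mapping of short reads from near-identical copies can change counts of small RNAs.

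Samples were grouped by the age in their labels. The members and lists were chosen with earlier results of these data known, and the members also by the study's calls on these libraries. Member names came from the study's lists. Named with values in every library were the RNAs named in the rule of choice, all SCARNA members, the 5 members with the most normalized reads, every name carried by 2 or more identifiers and members listed in more than 1 comparison; every other member is given at least once.

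Counts were scaled with TMM and tested with the quasi-likelihood test of edgeR 4.0.16 (R 4.3.3) in pairs of ages, leaving out genes with under 5 reads in every library compared, with Benjamini-Hochberg adjustment over all genes and a threshold of 0.05. The standard error is the log2FC divided by the square root of its F statistic. No p is given for members. The labels name separate samples but give no batch. The p-values set a difference against the spread between these pools, with a dispersion moderated over all genes. The alternatives were 3 ways of keeping the library with labels of both 6 and 12 months and the edgeR exact test with tagwise dispersion. Further ones were DESeq2 1.42.0, RLE size factors, library sizes without the most abundant gene and 2 other filters. The last were 1 fit over the 3 ages and each library left out in turn. The exact test used 28 prior degrees of freedom and the study's proportion of 0.5. Its prior weight was not matched to the study's for the fewer libraries used here. A fit on the 3 deepest libraries was added after the data had been seen.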

Additional observations from a re-analysis of the deposited data

How the results depend on the processing

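No alternative reversed the median of the 36 members, which from 6 to 12 months stayed between -2.52 and -1.80 with each library left out, from 6 to 28 months between -1.68 and -0.90 and from 12 to 28 months between 0.85 and 1.15. The number of members called moved more. With the shared library kept as labelled it was 0 in each comparison, and 0 with that library at 6 months (6 to 12 and 6 to 28 months) or at 12 months (12 to 28 months), all by the edgeR quasi-likelihood test, with between 13 and 35 members at an unadjusted p under 0.05; in these fits 0 to 0.118% of all genes were called in the members' direction. With it at 12 months, 23 were called from 6 to 12 months (0.534% of all genes). Without this library, in the order of the comparisons above, the edgeR exact test called 36, 24 and 12 members and 1.86, 0.586 and 0.568% of all genes, and DESeq2 29, 14 and 7 members and 1.48, 0.592 and 0.639% of the genes to which it gave an adjusted p. With at least 1 read in any library as the filter, 22, 27 and 14 members and 0.465, 0.575 and 0.488% of all genes were called. In 1 fit over the 3 ages 0 members were called from 12 to 28 months (0.0491% of all genes), with 22 at an unadjusted p under 0.05. For these alternatives the number of all genes at that unadjusted threshold is not given, and nothing is read from the unadjusted counts. With each library left out, the count ran from 31 to 36 from 6 to 12 months (1.60 to 3.70% of all genes), from 0 to 20 from 6 to 28 months and from 0 to 10 from 12 to 28 months; where this leaves 1 library at an age, that library is assumed to vary like those of the other age. The cause of these shifts was not tested. For single RNAs not called in the comparison, the log2FC changed sign for SNORA21 (35784) without 6 months sample 1 (0.47 from 6 to 28 months) and for SNORA48 (44946) without 12 months sample 2 (-0.23 from 12 to 28 months), and 4 others in some setting moved past 0 by at most 0.10. Without the most abundant gene in the denominator, the member share was 1.76 and 1.52% at 6 months, 0.442 and 0.401% at 12 months, 0.891, 0.639 and 0.624% at 28 months and 0.592% in the shared library, in the same order of ages. No paired analysis was possible because the labels number the pools 1 to 9 through the series, so that no replicate number is shared by 2 ages. Counts were low for SNORA36 (36005), with 0 to 82 reads per library, SNORA36 (35801), with 2 to 245, and SNORA20, with 5 to 68.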
